A study of Mus musculus with 18 samples.

Results

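The transcript levels of 6 transcription factor genes, Foxa1, Foxa2, Klf4, Klf5, Elf3 and Ets2, were followed in 3 organs of newborn mice. The organs were oviduct, uterus and vagina, after prenatal exposure to diethylstilbestrol (DES) or to oil. The genes were taken by symbol from the annotation of the MOE430A array. They make up 6 of the 12393 genes annotated on that array and 8 of its probe sets, since Klf4 and Klf5 have 2 each. All 8 probe sets were among those tested, as described below.

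DES is a synthetic estrogen. Per the labels, pregnant ICR mice received DES at 67 µg per kg of their own weight, once daily, on fetal days 10 to 18, or oil, and total RNA was prepared at the day of birth from 3 litters. The groups were oil oviduct, oil uterus, oil vagina, DES oviduct, DES uterus and DES vagina, with 3 arrays each. All groups share the ICR strain, and no group carries an allele or agent other than DES or oil. Each organ was measured as bulk RNA, and whether organs were pooled within a litter is not given in the sources used here.

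Foxa1 and Foxa2 encode closely related forkhead proteins that can bind their sites in closed chromatin and make them accessible to other factors. Foxa1 is known for this role at binding sites of steroid receptors in breast and prostate cells, and Foxa2 is needed for the formation of uterine glands in mice. Klf4 and Klf5 encode zinc finger proteins that bind GC-rich and CACCC-type sites. Klf4 is known for promoting differentiation and barrier formation in epithelia such as the skin, and Klf5 for its expression in dividing basal and crypt cells. Elf3 and Ets2 belong to the ETS family, whose members bind a GGAA core. Elf3 is largely restricted to epithelia, and Ets2 acts downstream of Ras and MAP kinase signals.

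DES vagina array 1 was hybridized to an older chip with other probe sets and is in none of the comparisons, so that the DES vagina group has n = 2. The other 17 arrays were scaled to a trimmed mean signal of 500, and a gene's level is given as scaled signal, mean ± SD. Detection calls, which say whether a probe set was Present or Absent, were at hand for 16 of the 17 arrays. Oil oviduct array 1 has a file identical to that of DES oviduct array 1, so its signals came from the deposited value table, without calls. The experiment record of DES oviduct array 3 names the vagina. Before scaling, the trimmed mean signal was 26.5 to 79.3 on arrays numbered 1 or 2 and 108 to 143 on those numbered 3. The Present share of probe sets was 52.7% to 58.6% and 63.7% to 66.3%, respectively. The scan headers give 1 day for all arrays numbered 1 or 2 and another for those numbered 3, and the names of arrays numbered 3 give 19 days post coitum in place of 0 days after birth. Scan day, the age in the name and signal strength therefore cannot be told apart. Skeletal muscle markers were high on oil oviduct arrays 1 and 3 and on oil uterus array 3, with mean log2 signals of 8.27, 9.04 and 9.38 over 12 markers, against 5.91 to 6.83 on the other oviduct and uterus arrays. In vagina these markers were at 8.27 to 10.6 on all arrays.

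The labelled organs were checked against marker lists. None of the 21 simple epithelium markers tested was Absent on all arrays of any group. Of 10 stratified epithelium markers, 5 were Absent on all arrays with calls in oil oviduct (Col17a1, Krt14, Krt17, Krt5 and Sfn) and 5 in oil uterus (Col17a1, Krt14, Krt15, Sfn and Trp63), and none in oil or DES vagina. Of 7 ciliated cell markers, none was Absent throughout in DES oviduct and 6 were in oil oviduct. In these markers DES oviduct array 3, whose record names the vagina, lay with its group. The summed ciliated signal was 12932 to 14881 over the 3 DES oviduct arrays and 3666 to 3702 in DES vagina. The summed stratified signal was 1056 to 1193 and 20739 to 31816, respectively.

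Promoter sequences from RefSeq were at hand for Foxa1, Foxa2, Klf4, Elf3 and Ets2. They are shown for Foxa1 and Foxa2, related genes whose levels differed between organs in unlike ways, and for Klf4 and Elf3, whose levels rose together. Each line gives the 250 bases before a start listed in the RefSeq table, in build GRCm38.p6, 5′ to 3′ on the strand of the gene, which is the minus strand in all 4 cases. The 1 start listed for Foxa1 lies inside the outer coordinates of the gene given below, so that its window does too. The first of the 3 start sites is shown for Foxa2. Capitals mark TGACC (an arm of the estrogen response element), TGTTTAC (a forkhead site) and CACCC (a Klf site), or their reverse complements.
Foxa1, chr12:57546112-57546361: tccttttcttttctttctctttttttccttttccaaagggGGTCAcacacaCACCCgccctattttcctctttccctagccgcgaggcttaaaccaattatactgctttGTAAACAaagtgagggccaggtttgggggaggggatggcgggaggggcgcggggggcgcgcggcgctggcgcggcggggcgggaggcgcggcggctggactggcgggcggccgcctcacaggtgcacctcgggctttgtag
Foxa2, chr2:148046970-148047219: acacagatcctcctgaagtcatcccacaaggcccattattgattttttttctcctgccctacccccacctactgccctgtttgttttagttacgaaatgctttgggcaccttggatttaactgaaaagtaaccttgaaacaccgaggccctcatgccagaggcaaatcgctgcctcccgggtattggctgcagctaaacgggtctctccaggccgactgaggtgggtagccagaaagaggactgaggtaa
Klf4, chr4:55532476-55532725: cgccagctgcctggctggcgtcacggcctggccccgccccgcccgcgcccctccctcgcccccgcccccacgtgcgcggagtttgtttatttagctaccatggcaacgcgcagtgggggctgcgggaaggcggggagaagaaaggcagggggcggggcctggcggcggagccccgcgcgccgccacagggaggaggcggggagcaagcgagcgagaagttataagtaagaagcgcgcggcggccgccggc
Elf3, chr1:135258473-135258722: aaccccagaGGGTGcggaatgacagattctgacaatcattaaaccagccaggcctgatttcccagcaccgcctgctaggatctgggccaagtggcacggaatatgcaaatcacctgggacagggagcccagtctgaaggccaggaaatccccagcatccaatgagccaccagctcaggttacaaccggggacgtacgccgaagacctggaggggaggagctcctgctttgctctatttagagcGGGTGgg

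The 6 motifs were searched on both strands. The palindromic estrogen response element (GGTCA, any 3 bases, TGACC, which contains that arm) was in 0.0639% of 32851 promoter windows of the same length and in none of the members' windows. The Foxa1 window holds 1 TGTTTAC site in reverse, starting at base -141, and 3.17% of all windows hold this motif. Foxa1 also holds TGACC at base -210, a motif found in 35.2% of all windows, and CACCC at base -199, found in 52% of them. Elf3 holds CACCC at bases -241 and -7, Ets2 (not shown) holds it at base -29, and Foxa2 holds it 2 times before each of its other start sites. The first Foxa2 window holds none of the motifs, and the Klf4 window holds only GGAA, at base -126, which 93.4% of windows hold. The other forkhead form, TGTTTGC, is in 4.3% of windows and in none of the members'. A match describes the letters of a window only.

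The first comparison asked which of the 6 genes differed between DES and oil within an organ. In the oviduct 4 of the 6 were higher after DES (Foxa2, Klf4, Elf3 and Ets2) and none was lower. In the uterus the same genes were higher and Klf5 was lower. In the vagina Klf4, Elf3 and Ets2 were higher. A gene counts here when its Benjamini-Hochberg adjusted p from the limma fit is under 0.05. Of all 9637 genes tested, 9.44% passed in the oviduct (5.35% higher), 9.87% in the uterus (5.61% higher and 4.25% lower) and 2.68% in the vagina (1.9% higher). The median log2 change of the 6 genes was 1.30, 1.78 and 1.25 in oviduct, uterus and vagina, against -0.06, -0.05 and -0.02 over all genes. The 6 genes were chosen with earlier results of these data known. Neither these counts and medians nor the counts between organs below therefore test them as a set. In these bulk samples a change in the number of epithelial cells and a change in RNA per cell cannot be told apart. Whether DES and oil arrays overlap is described below for each gene. How many of all genes lay apart in this way was not counted. With 2 or 3 arrays per group, such separation is a weak criterion.

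**Figure D1:**
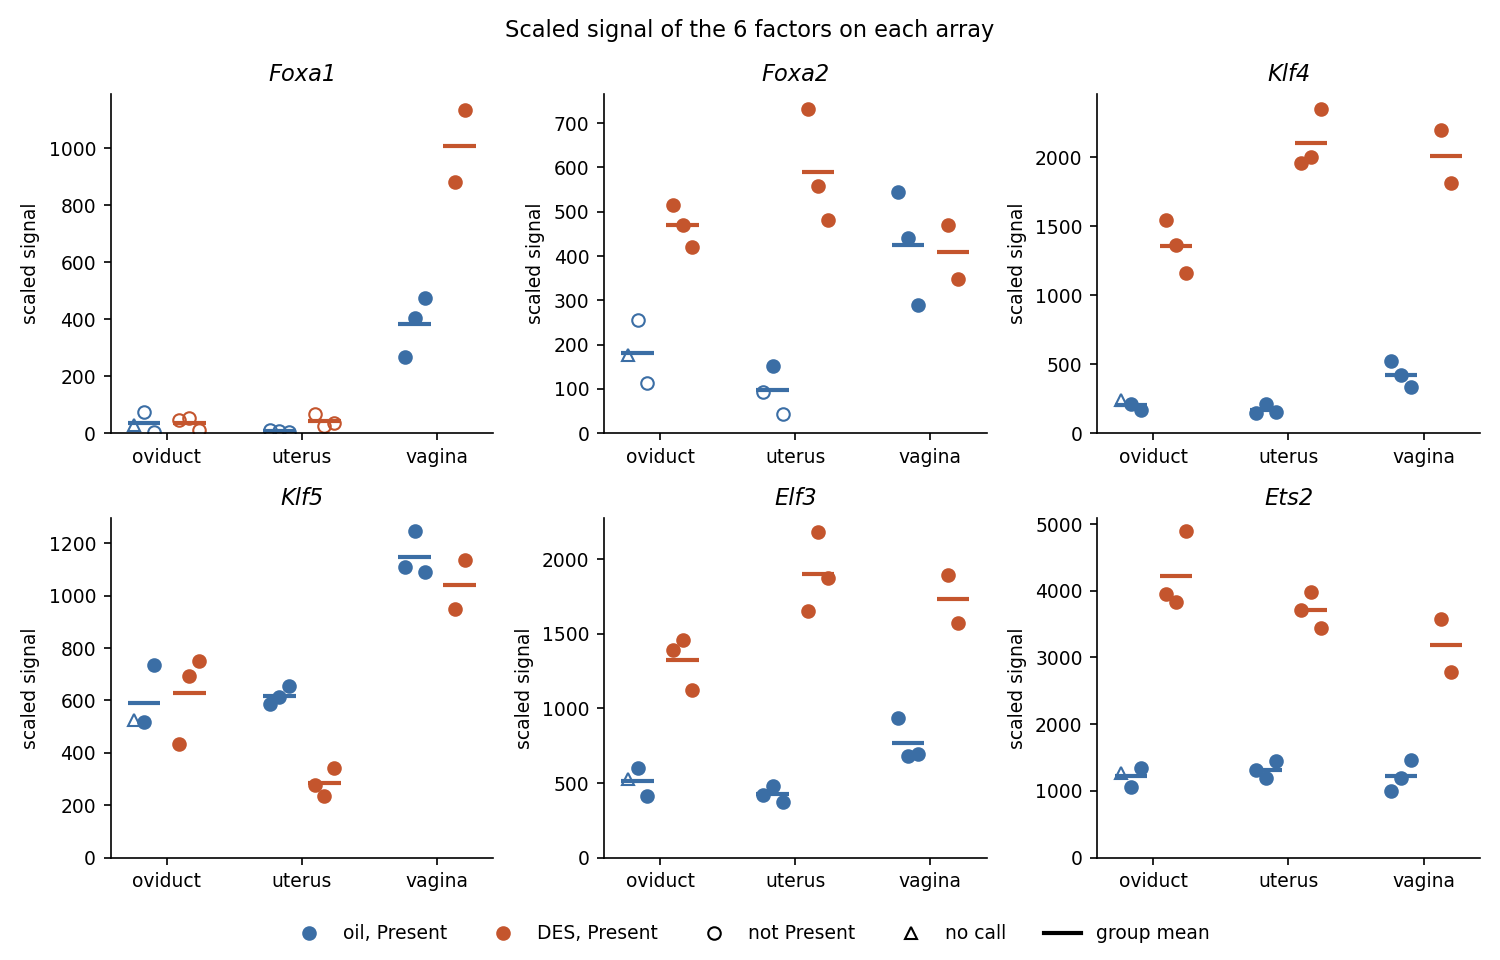
Scaled signal (linear axis from 0) of each factor on the 17 MOE430A arrays, by organ, with oil in blue and DES in orange. Points run from the lowest to the highest array number within a group, filled points were called Present, open circles were not, the triangle is the array without calls, and bars are group means. Klf4, Elf3 and Ets2 lie higher on every DES array than on any oil array of the same organ. How many of all genes do so was not counted. Klf5 is low in DES uterus, and Foxa1 is Present in vagina alone.

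Foxa1 (gene at chr12:57540628-57548029) was detected only in the vagina. Its signal was 28.3, 72.7 and 2.65 on oil oviduct arrays 1, 2 and 3, and 47.7, 51.7 and 10.6 on the DES oviduct arrays. It was 11.7, 6.97 and 4.47 in oil uterus, and 65.7, 23.8 and 35.2 in DES uterus. All of these arrays with calls were Absent, so no fold is given between oil and DES in oviduct or uterus. In the vagina all arrays were Present. Oil vagina gave 269, 403 and 475, and the 2 DES vagina arrays 882 and 1136.

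Both DES vagina arrays lay above all 3 oil arrays for Foxa1, with means of 1009 ± 179 and 382 ± 105. The log2 change was 1.35 with a standard error of 0.43 (95% interval 0.45 to 2.25), and it did not pass the threshold (limma, adjusted p = 0.148). With scan day as a block the change was 1.40 and passed (limma, adjusted p = 0.0444), as it did with a pseudocount of 100. It did not pass after quantile normalization (limma, adjusted p = 0.0622), on the first scan day alone (0.157) or in any fit that left out 1 array (up to 0.526). The difference was 1.34 within the first scan day and 1.20 within the second. Across organs Foxa1 was higher in oil vagina than in oil uterus by at least 7.01-fold (limma, adjusted p = 4.91e-05) and than in oil oviduct by at least 5.91-fold (limma, adjusted p = 0.000238). In DES it exceeded the uterus by at least 14.1-fold (limma, adjusted p = 8.30e-05) and the oviduct by at least 15.6-fold (limma, adjusted p = 1.63e-05). "At least" means that the lower group was Absent on all its arrays with calls. Each of these was raised, where needed, to the lowest signal called Present on it. Oil oviduct array 1 has no calls, so its signal was used unraised in all bounds against oil oviduct. The bound concerns detection and leaves out the spread between arrays.

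The vagina also differed from the other organs in markers of several tissues. The summed signal of 10 stratified epithelium markers was 970.4 to 1151 in oil oviduct and 745 to 836 in oil uterus, against 4218 to 12545 in oil vagina. It was 1056 to 1193 in DES oviduct, 1628 to 2526 in DES uterus and 20739 to 31816 in DES vagina. The sum over 12 skeletal muscle markers was 4423 to 19214 in oil vagina and 20008 to 27268 in DES vagina. Nerve markers were lower in oil uterus than in oil vagina in 4 of 7 cases and in oil oviduct in 2, with sums of 1343 to 1998 in oil uterus, 3408 to 5669 in oil oviduct and 4412 to 6262 in oil vagina. Smooth muscle markers were lower than in oil vagina in 3 of 7 cases in oil uterus and in 5 in oil oviduct. On the 3 oil oviduct and uterus arrays that were high in skeletal muscle markers, Foxa1 was listed at 28.3, 2.65 and 4.47. Of these markers, Chrna1 and Myog were Absent on all oil oviduct and oil uterus arrays with calls. None was Absent on all arrays of oil vagina or of DES vagina. The part of these tissues in the Foxa1 levels of the vagina was not tested.

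Foxa2 (chr2:148042877-148046969) was low in oil oviduct and uterus and was higher there after DES, while in the vagina the treatments overlapped. Oil oviduct arrays gave 177, 255 and 113, both with calls Absent, and DES oviduct arrays gave 515, 471 and 421, all Present. Oil uterus arrays gave 93.9, 152 and 43.0, with array 2 called Present, and DES uterus arrays gave 733, 557 and 481. In both organs each DES array exceeded each oil array. In the vagina oil gave 546, 441 and 289 and DES 470.4 and 347, and the groups overlapped.

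The change of Foxa2 in the uterus was 2.35 on the log2 scale, with a standard error of 0.32 (limma, adjusted p = 0.000102). In the oviduct the log2 change was 1.28 with a standard error of 0.32 and a 95% interval of 0.61 to 1.95 (limma, adjusted p = 0.0169). The oil arrays with calls were Absent there, and the fold of at least 2.43 that this gives is the fitted fold itself, since no oil signal had to be raised. Without DES oviduct array 1, DES oviduct array 2 or oil oviduct array 3 the call was lost (largest limma adjusted p = 0.0825, for the last of these). It was also lost without the arrays high in skeletal muscle markers, when the log2 change was 0.80 (limma, adjusted p = 0.302) and rested on 1 oil oviduct array. In the vagina the log2 change was -0.02, with a 95% interval of -0.77 to 0.72 (limma, adjusted p = 0.993). Within the first and second scan days the differences were 1.10 and 1.65 in oviduct, 2.14 and 2.77 in uterus, and -0.06 and 0.24 in vagina.

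In oil, Foxa2 was higher in vagina than in uterus, at 425 ± 129 against 96.4 ± 54.6 (log2 difference of uterus to vagina -1.88, limma adjusted p = 0.00178). Oil oviduct lay between them at 182 ± 71.1 and did not pass against either organ. Its log2 difference was 0.77 against uterus (limma, adjusted p = 0.348) and -1.11 against vagina (limma, adjusted p = 0.0610). Both passed with scan day as a block (limma, adjusted p = 0.0364 and 0.00128). After DES the 3 organs lay at 469 ± 47.0, 590.2 ± 129 and 409 ± 87.0 in oviduct, uterus and vagina, and no pair passed. The difference between organs in the DES effect was tested directly. The effect in vagina was 2.38 log2 units below that in uterus (log2 difference -2.38, standard error 0.47, limma adjusted p = 0.0494). In this test 0.311% of all genes passed, 0.197% with a negative difference. Leaving out 1 array at a time ended the call in 12 of 17 fits (largest limma adjusted p = 0.280, without DES vagina array 3).

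Klf4 was the member with the largest DES change in every organ. Its representative probe set (gene at chr4:55527137-55532475) was Present on all 16 arrays with calls. In the oviduct the signal was 243, 208 and 164 in oil and 1544, 1361 and 1159 after DES. In the uterus it was 144, 215 and 153 in oil and 1961, 2004 and 2351 after DES. In the vagina it was 522, 418 and 331 in oil and 2195 and 1816 after DES. The highest oil value of any organ was thus below the lowest DES value of any organ.

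The log2 change of Klf4 was 2.55 in oviduct (standard error 0.19, limma adjusted p = 2.89e-07), 3.41 in uterus (standard error 0.19, limma adjusted p = 7.81e-09) and 2.17 in vagina (standard error 0.22, limma adjusted p = 1.51e-05). These are 5.86-fold, 10.6-fold and 4.52-fold on the scale of signal + 32. Among the 9637 genes tested, the size of the change ranked 58, 24 and 50. The other probe set of Klf4 gave 2.31, 2.92 and 1.97, and each passed. Every leave-one-out fit kept these calls for the representative probe set. The change was 2.53 and 2.60 within the 2 scan days in oviduct, 3.27 and 3.69 in uterus, and 2.16 and 2.35 in vagina.

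Without DES, Klf4 was higher in vagina than in the other organs, at 424 ± 95.7 against 171 ± 38.6 in uterus (log2 difference of uterus to vagina -1.17, limma adjusted p = 0.00169) and 205 ± 39.5 in oviduct (log2 difference of oviduct to vagina -0.93, limma adjusted p = 0.00777). The second of these was lost without oil vagina array 1 (limma, adjusted p = 0.0530). After DES the order was uterus (2105 ± 214), vagina (2005 ± 268) and oviduct (1355 ± 193). DES uterus and vagina overlapped, and DES oviduct lay below both, without passing (limma, adjusted p = 0.0863 against uterus and 0.209 against vagina). With scan day as a block both passed (limma, adjusted p = 0.0165 and 0.0450). The DES effect in uterus exceeded that in vagina by 1.24 and that in oviduct by 0.86 log2 units, and neither difference passed without the block (limma, adjusted p = 0.124 and 0.199). With it both did (limma, adjusted p = 0.0182 and 0.0409).

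Klf5 was the only member that passed as lower after DES, and it did so in the uterus. Its representative probe set (gene at chr14:99298691-99313412) gave 587, 615 and 655 in oil uterus and 277, 235 and 342 in DES uterus, and the groups did not overlap. In the oviduct it gave 524, 516 and 735 in oil and 435, 694 and 752 after DES. In the vagina it gave 1109, 1246 and 1091 in oil and 949 and 1136 after DES. In both of these organs the treatments overlapped.

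The log2 change of Klf5 in the uterus was -1.05 with a standard error of 0.20 (limma, adjusted p = 0.00225), a 2.07-fold lower level. It was -1.14 and -0.88 within the 2 scan days, and the call held in every leave-one-out fit. The other probe set of Klf5 gave -0.98 and did not pass (limma, adjusted p = 0.0561). The change was 0.06 in oviduct (95% interval -0.36 to 0.48) and -0.14 in vagina (95% interval -0.61 to 0.33). The DES effect in uterus was 1.11 log2 units below that in oviduct, a difference that did not pass (limma, adjusted p = 0.0674). It passed with scan day as a block (limma, adjusted p = 0.00683).

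Across organs Klf5 was highest in vagina. Oil vagina, at 1149 ± 84.6, exceeded oil uterus at 619 ± 34.1 (log2 difference of uterus to vagina -0.86, limma adjusted p = 0.0190) and oil oviduct at 592 ± 124 (log2 difference of oviduct to vagina -0.94, limma adjusted p = 0.00951). The first call was lost without oil uterus array 1 or 2 or oil vagina array 1 or 2 (largest limma adjusted p = 0.0818), and the second without oil oviduct array 1 or 2 or oil vagina array 2 (largest limma adjusted p = 0.0547). After DES the uterus lay below both other organs, by -1.77 against vagina (limma, adjusted p = 0.000203), and the oviduct was above it by 1.03 (limma, adjusted p = 0.00418). The oviduct lay below the vagina by -0.74, which passed with scan day as a block and not without it (limma, adjusted p = 0.0175 and 0.0725). The second probe set did not show the organ differences in oil. It was at 426 ± 117 in oil uterus and 416 ± 111 in oil vagina, a log2 difference of 0.03 (limma, adjusted p = 0.987). After DES its differences were -0.92 for uterus to vagina and 0.35 for oviduct to uterus, and neither passed (limma, adjusted p = 0.344 and 0.752).

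Elf3 (chr1:135253574-135258472) was higher after DES in all 3 organs. Its signal in the oviduct was 529, 598 and 416 in oil and 1389.5, 1462 and 1127 after DES. In the uterus it was 421, 482 and 372 in oil and 1650.2, 2186 and 1872 after DES. In the vagina it was 938, 680.4 and 695 in oil and 1898 and 1576 after DES. No DES array overlapped the oil arrays of any organ, and all arrays with calls were Present.

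The log2 change of Elf3 was 1.32 in oviduct (limma, adjusted p = 0.000110), 2.08 in uterus (limma, adjusted p = 8.58e-07) and 1.15 in vagina (limma, adjusted p = 0.00337), with standard errors of 0.18, 0.18 and 0.20. The vaginal call was lost without DES vagina array 2 (limma, adjusted p = 0.0835). Within the 2 scan days the change was 1.29 and 1.37 in oviduct, 2.002 and 2.24 in uterus, and 1.22 and 1.14 in vagina. In oil, Elf3 was higher in vagina (771 ± 144) than in uterus (425 ± 55.0, log2 difference of uterus to vagina -0.81, limma adjusted p = 0.0131). That call was lost without oil uterus array 1 or 3 or oil vagina array 1 (largest limma adjusted p = 0.0797, for the last). Oil oviduct, at 514 ± 92.2, did not pass against vagina (log2 difference -0.56, limma adjusted p = 0.105), but did with scan day as a block (limma, adjusted p = 0.0140). After DES, Elf3 in oviduct was below uterus by -0.51 on the log2 scale, which also passed with the scan day block and not without it (limma, adjusted p = 0.0233 and 0.146). The DES effect in uterus exceeded that in oviduct by 0.76 log2 units, which passed with that block and not without it (limma, adjusted p = 0.0337 and 0.229). It exceeded that in vagina by 0.93 without the block (limma, adjusted p = 0.321) and by 0.89 with it (limma, adjusted p = 0.0463).

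Ets2 (chr16:95702407-95721049) was higher after DES in each organ. In the oviduct it gave 1273, 1059 and 1348 in oil and 3954, 3826 and 4896 after DES. In the uterus it gave 1319.5, 1193 and 1442 in oil and 3715, 3978 and 3436 after DES. In the vagina it gave 1004, 1195 and 1465 in oil and 3583 and 2779.6 after DES. The DES values lay above all oil values of all organs.

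The log2 change of Ets2 was 1.76 in oviduct (limma, adjusted p = 2.06e-06), 1.47 in uterus (limma, adjusted p = 1.01e-05) and 1.36 in vagina (limma, adjusted p = 0.000211), with standard errors of 0.16, 0.16 and 0.18. These calls held in every leave-one-out fit. Within the 2 scan days the change was 1.72 and 1.84 in oviduct, 1.59 and 1.23 in uterus, and 1.68 and 0.91 in vagina. Ets2 was the one member whose oil levels did not pass between any pair of organs, at 1227 ± 150.2, 1318 ± 125 and 1221 ± 232 in oviduct, uterus and vagina. The 95% interval of the log2 difference between oil uterus and oil vagina was -0.21 to 0.45. No difference of its DES effect between organs passed. The intervals were -0.75 to 0.18 for uterus minus oviduct, -0.61 to 0.39 for vagina minus uterus and -0.89 to 0.10 for vagina minus oviduct.

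**Figure D2:**
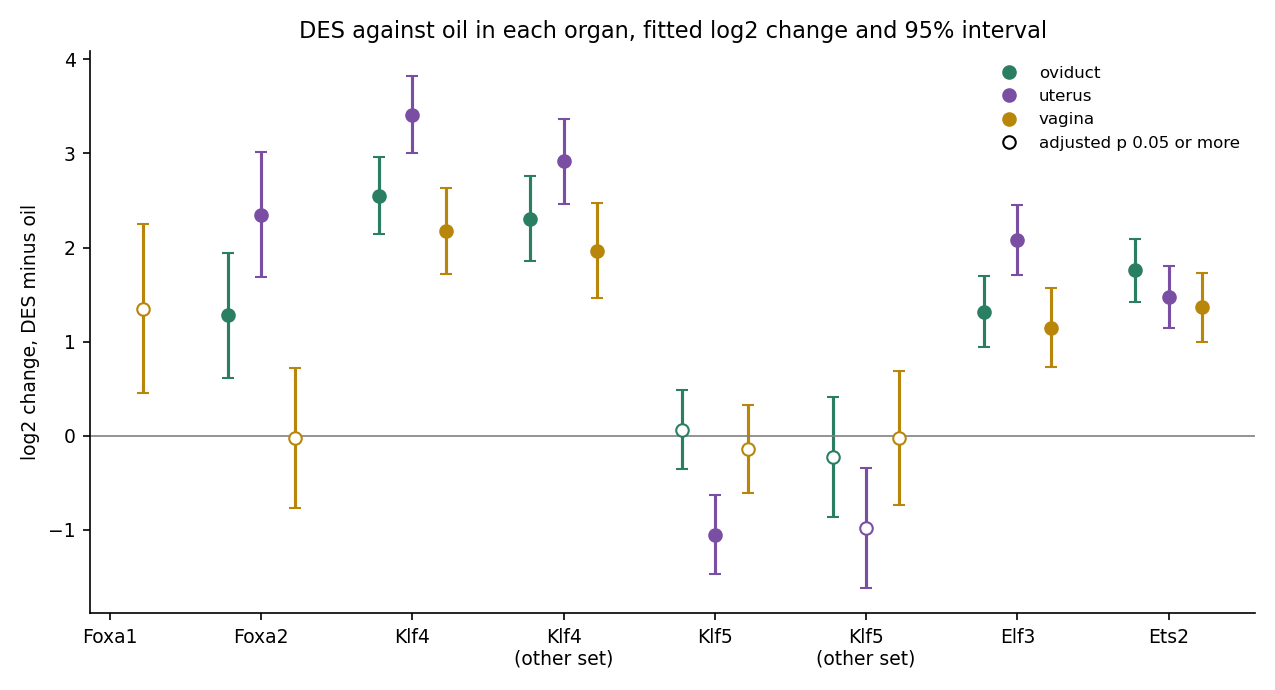
Fitted log2 change, DES minus oil, with its 95% interval, for each probe set in oviduct, uterus and vagina. Filled points have an adjusted p under 0.05, "other set" is the second probe set of Klf4 or Klf5, and Foxa1 is drawn for vagina only because it was Absent in the other organs. Klf4 has the largest changes (2.55, 3.41 and 2.17), Ets2 changes by 1.36 to 1.76 in all organs, and Klf5 falls below 0 in the uterus (-1.05).

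The second comparison asked how the 6 genes differed between the organs without DES. In oil, 5 of the 6 (all but Ets2) were lower in uterus than in vagina, where 4.52% of all genes passed (2.98% lower). Between oviduct and vagina, Foxa1, Klf4 and Klf5 were lower in oviduct, where 4.7% passed (2.29% lower). None passed between oviduct and uterus, where 1.83% of all genes did, and Foxa2 alone had an unadjusted limma p under 0.05 there. The simple epithelium markers differed in the same direction, with 8 of 21 lower in oil uterus than in oil vagina and 11 of 21 lower in oil oviduct. Their summed signal was 20877 to 23339 in oil uterus, 19649 to 22234 in oil oviduct and 34707 to 41630 in oil vagina. The part of this in the members' organ differences was not tested. Without the oil arrays high in skeletal muscle markers, which leaves 1 oil oviduct array, none of the members passed between oviduct and vagina. Between uterus and vagina the same removal ended the call for Elf3 (log2 difference -0.72, limma adjusted p = 0.0612).

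Fewer differences of the members passed between the organs after DES, where the vagina has 2 arrays. Over all genes, a larger share passed than in oil for oviduct against uterus (1.83% in oil) and oviduct against vagina (4.7% in oil). A smaller share passed for uterus against vagina (4.52% in oil). Foxa1 and Klf5 were lower in uterus than in vagina, in a comparison in which 2.12% of all genes passed (1.61% lower). Foxa1 was lower in oviduct than in vagina (6.64% of all genes passed, 3.18% lower) and Klf5 was higher in oviduct than in uterus (5.29% passed, 3.47% higher). In the fit without a block, the DES effect itself differed between organs for 1 member, Foxa2, as given above. None passed for uterus minus oviduct (1.74% of all genes did), where 4 members had an unadjusted limma p under 0.05. None passed for vagina minus oviduct (1.68% did), where 2 members had one. With scan day as a block, Foxa2, Klf4, Klf5 and Elf3 passed for uterus minus oviduct, Foxa2 with a difference of 1.07 (limma, adjusted p = 0.0480). Foxa2 then also passed for vagina minus oviduct (difference -1.21, limma adjusted p = 0.0350). Of all 9637 genes, 206 passed as higher and 218 as lower for uterus minus oviduct with this block, against 74 and 94 without it. For vagina minus oviduct the counts were 177 and 212 with it, against 64 and 98. The comparisons of DES with oil and those between organs share their groups and are not independent.

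The summed signal of the simple epithelium markers was itself higher after DES in 2 organs. It was 33595 to 39659.5 in DES oviduct and 31816 to 40669.9 in DES uterus, above the oil ranges given above. In the vagina it was 39186 to 45708 after DES, and the range overlapped that in oil. Of the 21 markers, 9 were higher and none lower in the oviduct, 9 higher and 2 lower in the uterus, and 2 higher and 4 lower in the vagina. Prom1 and Cldn6 fell most in the vagina, with log2 changes of -1.97 and -2.24.

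The members' levels were also set against the mean log2 signal of these markers on the same array. Because the markers themselves differed after DES, this does not separate the number of epithelial cells from RNA per cell. Which cells carried the members' RNA, that of Ets2 included, is not known from bulk samples. Relative to the marker mean, Klf4 differed between DES and oil by 1.93, 3.02 and 2.29 log2 units in oviduct, uterus and vagina. For Elf3 the relative differences were 0.70, 1.69 and 1.27, and for Ets2 they were 1.14, 1.08 and 1.48. On this relative scale the DES and oil arrays of these 3 genes did not overlap in any organ. Foxa2 differed by 0.66 and 1.96 in oviduct and uterus without overlap, and by 0.09 with overlap in the vagina. Klf5 differed by -0.56 in oviduct and -1.44 in uterus, both without overlap, and by -0.02 with overlap in the vagina. As measured, Klf5 changed by only 0.06 in oviduct, with overlap, so its relative value there reflects the higher marker mean. Foxa1 differed by 1.47 in the vagina. How many of all genes lay apart on this scale was not counted. With 2 or 3 arrays per group, such separation is a weak criterion. These relative values are descriptions and were not tested.

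**Figure D3:**
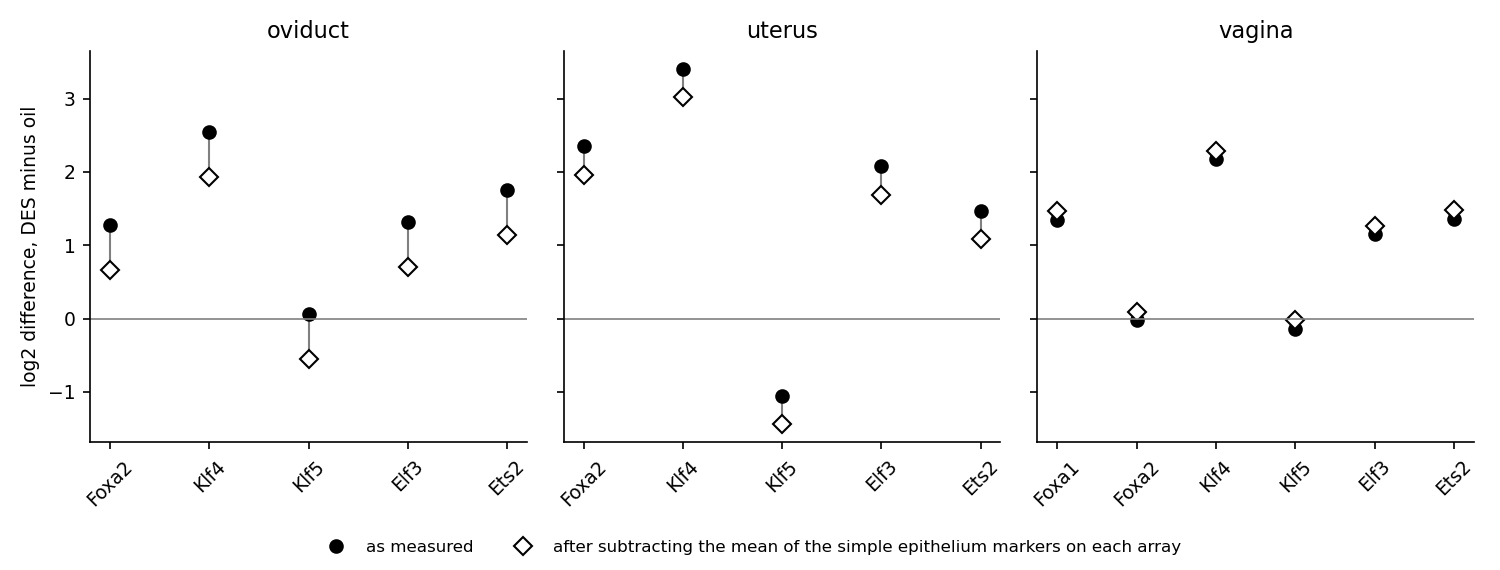
Log2 difference between DES and oil for each factor in each organ, as measured (filled circles, from the limma fit) and after the mean log2 signal of the 21 simple epithelium markers was subtracted on each array (open diamonds). The subtraction lowers the differences in oviduct and uterus and raises them slightly in the vagina, and Klf4 is the highest in each panel on both scales.

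Other cell types moved with DES as well. Ciliated cell markers were higher after DES in the oviduct in 7 of 7 cases, with sums of 2810 to 3323 in oil and 12932 to 14881 after DES, and in neither of the other organs did any pass. Smooth muscle markers were higher in DES uterus in 5 of 7 cases (24238 to 24963 in oil and 41958 to 54544 after DES). The stratified epithelium markers were higher after DES in 1 of 10 cases in oviduct, 4 in uterus and 5 in vagina. Stroma markers were higher in 6 and lower in 2 of 12 cases in the uterus, and higher in 3 in the vagina. Mesothelial markers were lower in 4 of 5 cases in the oviduct, and in the uterus 1 was higher and 2 were lower. Nerve markers were lower in 3 of 7 cases in the oviduct, with sums of 3408 to 5669 in oil and 982 to 1154 after DES, and in 1 case in the uterus. Of the 9 endothelial and 10 leukocyte markers, 1 of each list was lower after DES in the oviduct, and the leukocyte gene Lyz2 was higher in the vagina. The part of these cell types in the members' changes was not tested.

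Other genes of the same families were counted next. Of 14 further Klf and Sp genes tested, none passed between DES and oil in any organ, with median log2 changes of -0.05, 0.10 and 0.18, and 1, 2 and 1 of them had an unadjusted limma p under 0.05 in oviduct, uterus and vagina. Of 14 further forkhead genes, 2 were higher in oviduct. Foxj1, which drives the formation of motile cilia, was at 96.3 ± 53.7 in oil and 551 ± 135 after DES, at least 4.71-fold higher (limma, adjusted p = 0.00664). Foxc1, which acts in mesenchyme and vessels, was at least 3.68-fold higher (limma, adjusted p = 0.00311). Foxo1, a forkhead factor held in check by insulin signalling, was the 1 forkhead gene higher in uterus (log2 change 1.22) and in vagina (1.01).

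Among 17 further ETS genes, Spdef and Elf5 were higher in oviduct, and none passed in the vagina, where none had an unadjusted limma p under 0.05 either. Spdef, which is known from mucus-producing goblet cells, was at least 2.50-fold higher in oviduct and at least 2.75-fold higher in uterus after DES. Elf5, an ETS gene of glandular and trophoblast epithelium, was at least 2.06-fold higher in oviduct, and passed as lower in the uterus, where it was Absent in both treatments and no fold is given. In oil, Elf5 and Ehf, another epithelial ETS gene, were higher in vagina than in uterus, as Elf3 was.

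Genes known to depend on the members in other settings were also counted, from lists chosen with earlier results of these data known. Of 6 uterine gland genes linked to Foxa2, 2 were higher after DES in each organ, and these were Cxcl15 and Ltf. Cxcl15, a chemokine of lung and uterine gland epithelium, was at 45.6 ± 9.12 in oil oviduct, 30.5 ± 36.9 in oil uterus and 396 ± 198 in oil vagina. After DES it was at 784 ± 245, 856 ± 93.9 and 1473 ± 162. Its rise was at least 10.3-fold in oviduct and at least 13.3-fold in uterus, and its log2 change in vagina was 1.93. Ltf, the estrogen-responsive lactotransferrin gene, was at least 2.35-fold, 9.49-fold and 11.5-fold higher in oviduct, uterus and vagina. In the vagina both were higher after DES. The log2 change of Foxa2 there was -0.02, with limits of -0.77 and 0.72 for the interval given above. The part of Foxa2 in the changes of Cxcl15 and Ltf was not tested.

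Of 10 secretory genes linked to Foxa1 and Foxa2, 4 were higher in oviduct, 5 in uterus and 2 in vagina, and none was lower. Clca1, a secreted protein of goblet cells, was at 111 ± 184 in oil uterus and 18716 ± 1576 in DES uterus, a log2 change of 7.91 with a standard error of 0.67 (limma, adjusted p = 8.58e-07). In the oviduct it was at least 18.7-fold higher. Agr2, a disulfide isomerase of mucus-secreting cells, had a log2 change of 4.70 in uterus and was at least 7.65-fold higher in oviduct. The mucin gene Muc5b was at least 12.7-fold higher in uterus and at least 11.7-fold higher in vagina. Muc1, which is also among the simple epithelium markers counted above, rose by 2.57 in uterus. The list's median log2 change was 1.06, 1.13 and 0.50 in oviduct, uterus and vagina.

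Of 12 barrier and growth genes linked to Klf4 and Klf5, 1 was higher and 1 lower in oviduct, 3 and 3 in uterus, and 2 and 1 in vagina. Sprr2f, a small proline-rich protein gene that estrogen induces in the uterus, was at 31.9 ± 15.2 in oil uterus and 5760 ± 763 after DES (log2 change 6.52, limma adjusted p = 1.74e-08). In the vagina it changed by 5.65, and in the oviduct it was at least 5.85-fold higher. Sprr1a rose by 3.04 in uterus, and Krt13, a keratin of stratified linings, rose by 3.65 in vagina. Tjp1, a tight junction gene, fell by 0.37 in oviduct and by 0.79 in uterus. Ccnd1, the cyclin D1 gene, fell by 0.93 in vagina. The list's medians were -0.05, -0.12 and 0.25, near those of all genes in oviduct and uterus.

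Of 10 genes linked to Elf3 and Ets2, 5 were higher in oviduct, 4 in uterus and 2 in vagina, and none was lower. Lcn2, the lipocalin 2 gene, was at 160.1 ± 13.0, 91.6 ± 28.2 and 263 ± 35.8 in oil oviduct, uterus and vagina and at 1052 ± 185, 2523 ± 1117 and 2114 ± 528 after DES. Its log2 changes were 2.48, 4.29 and 2.85. Tgfbr2, a receptor gene for TGF-beta that Elf3 is known to activate in the intestine of mice, rose by 0.87 in uterus and 0.66 in vagina. Krt8, a keratin that is also among the simple epithelium markers counted above, rose by 1.08 in oviduct and 0.98 in uterus. Cd14 rose by 1.71 in uterus. Angpt1 and Mmp13 were at least 2.82-fold and 2.24-fold higher in the oviduct, at mean signals of 140.2 ± 54.9 and 90.1 ± 41.7 after DES. The list's medians were 0.82, 0.48 and 0.29.

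The members' own levels were compared with one another over the 17 arrays, which share their scaling, scan days and groups. Klf4 and Elf3 ran closest, with a Pearson r of 0.986, and both followed Ets2 (0.880 and 0.835) and Foxa2 (0.833 and 0.861). Klf5 ran with none of these (-0.28 with Klf4, -0.30 with Elf3 and -0.40 with Ets2) and was nearest to Foxa1 (0.612). Foxa1 and Foxa2, the related pair, had an r of 0.435. In the plot of these pairs, Foxa2 was as high in DES oviduct and uterus as in vagina, while Foxa1 was not.

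**Figure D4:**
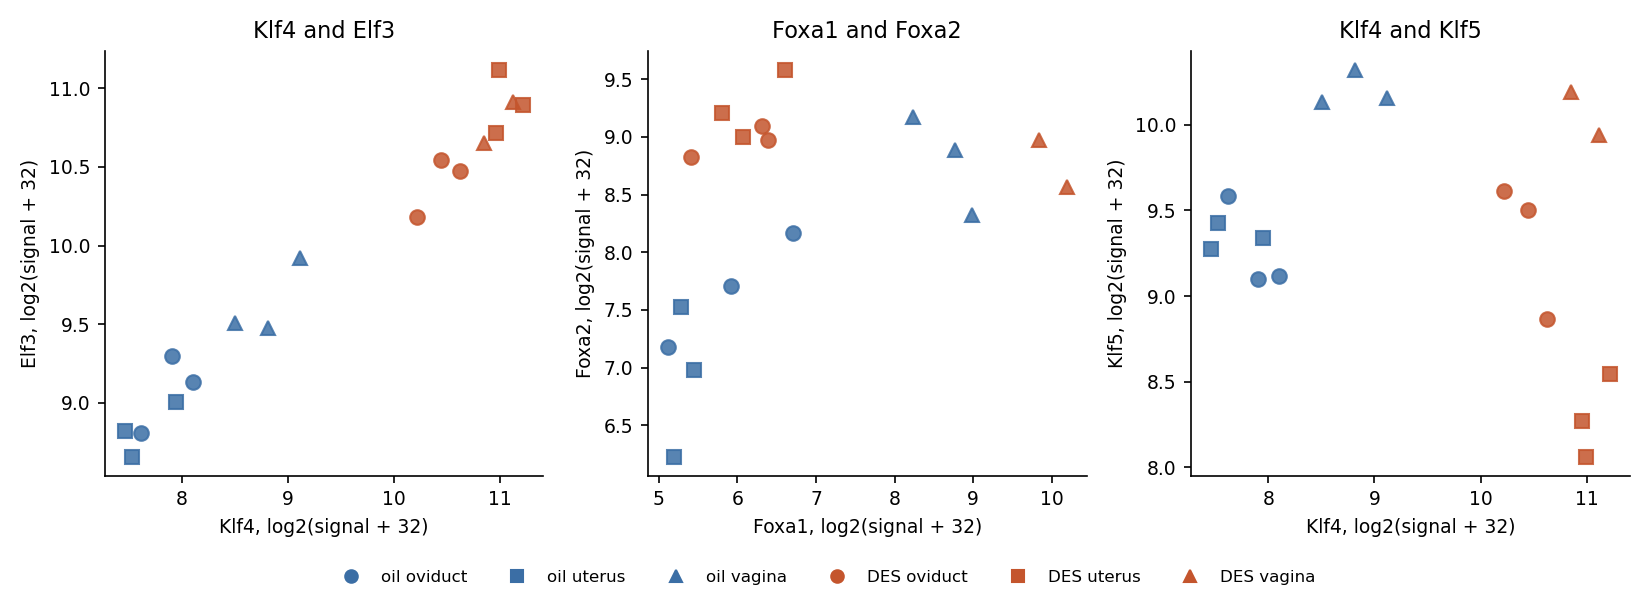
Levels of 3 pairs of factors, as log2(signal + 32) on both axes, with 1 point per MOE430A array (circles oviduct, squares uterus, triangles vagina, oil in blue and DES in orange). Klf4 and Elf3 lie close to a line (r = 0.986), Foxa1 separates the vagina from the other organs while Foxa2 does not (r = 0.435), and DES uterus stands out in the plot of Klf4 and Klf5 with high Klf4 and low Klf5.

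The genes whose levels followed each member most closely were found by the same measure over all genes tested, with 3 taken per member. For Klf4 these were Lcn2 (0.974), Padi1 (0.969) and Cbr2 (0.968), and for Elf3 the same 3 genes, at 0.966, 0.955 and 0.957. Cbr2 had mean signals of 189, 51.2 and 488 in oil oviduct, uterus and vagina and of 4063, 11348 and 7132 after DES. For Ets2 they were Npy1r (0.982), Plod2 (0.9755) and Bcat1 (0.959). Npy1r, a receptor gene for neuropeptide Y, was at means of 12.2 to 26.0 in the oil groups and of 283 to 678 in the DES groups.

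For Foxa1 the closest genes were Myog (0.9747), Duoxa1 (0.960) and Krt6a (0.957). Myog is a skeletal muscle factor and Krt6a a keratin of stratified epithelium, and both had higher means in the vagina than in any other organ, as Foxa1 had. For Foxa2 they were Cd14 (0.929), Tspan1 (0.918) and Rab25 (0.897), and for Klf5 they were Elf5 (0.898), Plcb4 (0.879) and Ddc (0.863). Elf5 had means of 128 in DES oviduct, 21.0 in DES uterus and 213 in DES vagina, the same order of organs as Klf5 after DES. These correlations rest on 17 arrays in 6 groups, so they mostly describe the group means.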

How the data were processed

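Total RNA of 18 samples was hybridized to Affymetrix arrays, 17 of type MOE430A and 1 of type MG_U74Av2. Per the file headers, the deposited files list for each probe set its linear signal intensity with a detection call and p-value. The value table that the authors deposited holds the same intensities for every array but oil oviduct array 1, whose own file is a repeat. Software and scaling were not stated in the sources used here.

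Each array was scaled to a mean of 500 after trimming 2% at each end, and log2(signal + 32) was taken from the deposited intensity. Folds are on that scale and understate changes of low genes. Of 22626 probe sets (64 controls left out), 16702 were Present on at least 2 arrays and entered a limma fit (version 3.58.1, R 4.3.3) of 1 mean for each group, with a variance trend (11 residual and 5.81 prior degrees of freedom). Benjamini-Hochberg adjustment was made separately for 12 contrasts, with a threshold of 0.05. A gene is represented by its probe set with the highest mean log2 signal. Symbols came from the platform annotation (20380 probe sets with 1 symbol, 691 with several, 1555 with none). P-values measure the spread between these arrays, which per the labels came from 3 litters, and the number of arrays limits the precision.

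Genes named are the 6 members, up to 4 per list and comparison with the largest changes among those that passed, and the 3 most correlated genes per member. The members and lists were chosen with earlier results of these data known. Whether arrays with the same number form pairs was checked through the correlation of their residuals. The median r was 0.294 (40 pairs, lowest 0.0856) for the same number, 0.236 (25 pairs) for other numbers of the same scan day and -0.344 (55 pairs) across scan days, so array number was not used as pairing. The fit has no scan day term. Scan day entered as a block in an alternative fit, given beside the calls of members that it changed. The procedure was also run on simulated data with independent errors and no scan day effect. That run therefore does not cover the scan day differences seen here. Alternatives were other normalization, pseudocounts, filters, source of values, blocks, sets of arrays and probe sets. Sequences came from RefSeq tables of build GRCm38.p6, which matched 5 of the 6 members, and no sequence is shown for Klf5.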

Additional observations from a re-analysis of the deposited data

Results flagged for a closer look

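The DES effect on Foxa2 differed between vagina and uterus by -2.38 log2 units, the 1 member for which limma's test of the difference passed (adjusted p = 0.0494). This call was lost in most fits that left out 1 array. DES vagina array 1, on the older chip, was in no comparison and gives values from other probe sets, for which there is no oil array. With the same scaling Foxa1 was at 841, Klf4 at 2996, Klf5 at 863, Elf3 at 2080 and Ets2 at 1254, and each was called Present. Foxa2 was called Absent there. The second Klf4 probe set of that chip was at 13.2 and Absent, so its 2 Klf4 probe sets disagreed. Levels cannot be set against those of the MOE430A arrays.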

How the results depend on the processing

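The calls for Klf4, Elf3 and Ets2 in the oviduct and uterus, for Klf4 and Ets2 in the vagina, and for Foxa2 and Klf5 in the uterus held in every fit that left out 1 array. The removal of arrays with conflicting records, the cutoff for skeletal muscle markers and the levels relative to epithelium were chosen after seeing the data. The replicate block (array number, which is not known to pair the samples) and the scan day block raised the counts of all genes between DES and oil. With the replicate block, 854 genes were higher and 807 lower in oviduct (516 and 394 without it), 890 and 778 in uterus (541 and 410), and 341 and 201 in vagina (183 and 75). With the scan day block they were 882 and 847, 911 and 804, and 375 and 234. Under the replicate block and the scan day block, respectively, members called were 1 and 1 for oviduct against uterus in oil, 5 and 5 for oviduct against vagina in oil, 3 and 3 for oviduct against uterus in DES, 2 and 3 for oviduct against vagina in DES, 2 and 4 for the DES effect in uterus minus oviduct, 2 and 3 for vagina minus uterus, and 1 and 1 for vagina minus oviduct. Foxa2 in the vagina was 0.067 and 0.073 under these blocks. All-gene counts rose in these contrasts. With the scan day block, 316 genes were higher and 174 lower for oviduct against uterus in oil (124 and 52 without it). They were 486 and 447 for oviduct against vagina in oil (232 and 221). In DES they were 608 and 408 for oviduct against uterus (334 and 176) and 562 and 503 for oviduct against vagina (334 and 306). For the effect in vagina minus uterus they were 48 and 66 (11 and 19), and the others are given above. Members called were 0 for oviduct against vagina in oil without the arrays high in skeletal muscle markers, 2 for oviduct against uterus in DES with a pseudocount of 100, 2 for oviduct against vagina in DES without the conflicting records, and 1 for the effect in uterus minus oviduct on the first scan day. For the effect in vagina minus uterus they were 0 with no filter, no variance trend, only the groups compared, a pseudocount of 1, and without the arrays sharing 1 file, with conflicting records or high in skeletal muscle markers. Changes of sign were found among small differences. Without the conflicting records Klf5 in oviduct was -0.15 and its effect in vagina minus oviduct 0.016. With its other probe set these were -0.23 and 0.20, and uterus against vagina in oil was 0.032. The other Klf4 probe set gave -0.023 for oviduct against uterus in oil. Ets2, oviduct against vagina in oil, was -0.014 without the arrays sharing 1 file or with conflicting records and -0.18 without those high in skeletal muscle markers, which also gave 0.048 for the Elf3 effect in vagina minus oviduct. On the first scan day Klf4, uterus against vagina in DES, was -0.14 and the Ets2 effect in vagina minus uterus 0.090. Leaving out 1 array gave ranges of -0.081 to 0.29 for Klf5 in oviduct, -0.26 to 0.18 for Foxa2 in vagina, and, in oil, -0.24 to 0.0053 for Klf5 (oviduct against uterus), -0.0091 to 0.26 for Ets2 (uterus against vagina) and -0.11 to 0.15 for Ets2 (oviduct against vagina). In DES they were -0.064 to 0.21 for Klf4 and -0.0058 to 0.26 for Elf3 (uterus against vagina) and -0.0082 to 0.40 for Foxa2 (oviduct against vagina), and -0.29 to 0.073 for the Ets2 effect in vagina minus uterus. Members called ranged from 3 to 5 for uterus against vagina in oil (3 without oil uterus array 1 or oil vagina array 1), 1 to 2 for oviduct against vagina in DES, and 0 to 1 for the effects in uterus minus oviduct and vagina minus uterus. The cause of these shifts was not tested. With 2 or 3 arrays per group and Absent calls for Foxa1 in 4 groups, small differences could not be resolved.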
